A study of Mus musculus with 4 samples.

Results

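Low-UMI granulosa cells were cells of the mouse ovary that carried granulosa transcripts but yielded few molecules. UMIs are the molecular tags by which captured transcripts were counted. A cell was a member when it had 1000 to under 5000 UMIs, at most 20% of UMIs from the mitochondrial genome, and a UMI of at least 2 of the 6 granulosa genes Foxl2, Fshr, Nr5a2, Kctd14, Gatm and Amhr2. It also had to hold no UMI of Pecam1 (endothelium), Ptprc (leukocytes), Myh11 (smooth muscle) or Lum (stroma). The rule was met by 618 of 33639 deposited cells: 101 of 9202 in the control library, 104 of 7141 in the doxorubicin library, 161 of 7818 in the doxorubicin+AMH library and 252 of 9478 in the AMH library. Wherever 4 values follow each other, they run from control through doxorubicin and doxorubicin+AMH to AMH. The cells had been given 3 marker genes, Spef2, Unc5c and Kirrel3.

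The study treated mice at postnatal day 25, and its title concerns protection of the ovary from doxorubicin by anti-Müllerian hormone (AMH). The control group received PBS or saline, the doxorubicin group 2 weekly doses of 3 mg/kg, the doxorubicin+AMH group the same doses with 0.75 mg/kg recombinant human AMH, and the AMH group 0.75 mg/kg AMH alone. Ovaries were taken 4 h after the second dose, and 1 ovary from each of 5 animals per group was pooled into 1 droplet library of 3′ transcript ends. With 1 library per group there is no test between treatments, no spread between animals, and every interval on a level, share or ratio is a 95% interval for counting error only. The strain and the route of dosing are not given in the sources used here.

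Granulosa cells surround the oocyte and line the growing follicle. They make inhibins and activins, turn androgen into estrogen under follicle-stimulating hormone, and secrete AMH, which signals through its receptor AMHR2 and through SMAD proteins that induce Id genes and the inhibitory SMADs Smad6 and Smad7. Doxorubicin intercalates into DNA and traps topoisomerase II, and the resulting damage induces p53 target genes such as Cdkn1a. Ribosomal protein mRNAs are mostly cytoplasmic, whereas RNAs such as Malat1 stay in the nucleus.

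Each library contributed between 304552 and 793285 UMIs from the low-UMI granulosa cells. Median UMIs per cell were 3769, 2921.5, 3452 and 3100. The median mitochondrial share lay between 5.08% and 6.98%. Over all deposited cells the library totals ran from 138647495 to 178279122 UMIs. Between 11 and 24 cell barcodes were shared by each of the 6 pairs of libraries, and 0 of them belonged to low-UMI granulosa cells. Of the members, 461 carried just 2 of the 6 granulosa genes, 126 carried 3, 27 carried 4 and 4 carried 5.

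The label was checked first against cells that should lack granulosa genes. Among cells in the same UMI and mitochondrial window with at least 2 UMIs of Pecam1 and Ptprc, 27 of 242 (11.2%, 95% Clopper-Pearson interval 7.48 to 15.8) also carried at least 2 of the 6 granulosa genes, at a median of 3488 UMIs. Over the whole window the share was 929 of 4735 (19.6%), at a median of 3116 UMIs. By library the first share was 8.75%, 6.45%, 16.7% and 11.3%, against 14.0%, 23.6%, 19.8% and 21.3% over the window. In control (3.59 to 17.2) and doxorubicin+AMH (8.29 to 28.5) the interval of the first share held that of the window. Exclusion by Pecam1, Ptprc, Myh11 or Lum removed 311 of the 929 cells.

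The given markers were present in a minority of members. Spef2, which encodes a sperm flagellar and ciliary axoneme protein, had a UMI in 24.4% of the 618 cells. Unc5c, a netrin receptor, had one in 29.8%, and Kirrel3, an immunoglobulin-family adhesion protein, in 34.8%. No marker at all was seen in 315 cells, 1 in 127, 2 in 105 and all 3 in 71. To compare classes at one depth, each cell was thinned to 1000 UMIs, after which 26.5% (23.1 to 30.2) of members held at least 2 UMIs of the 3 genes. The share was 4.38% (3.89 to 4.92) in the 6279 deep granulosa cells, defined by the same rule but with 5000 or more UMIs and a median of 21119. In the 242 leukocyte or endothelial low-UMI cells it was 16.9% (12.4 to 22.3). Inha, the inhibin alpha subunit, was detected after thinning in 62.8% (58.8 to 66.6) of members and in 27.3% (21.8 to 33.3) of those leukocyte or endothelial cells.

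Single genes showed how far detection in members stood above that background. After thinning, Spef2 was detected in 15.4% (12.6 to 18.5) of members, 6.61% (3.83 to 10.5) of leukocyte or endothelial low-UMI cells and 7.96% (7.31 to 8.66) of deep granulosa cells. Unc5c was detected in 19.3% (16.2 to 22.6), 12.8% (8.87 to 17.7) and 5.10% (4.57 to 5.67) of the 3 classes in that order. Kirrel3 was detected in 22.0% (18.8 to 25.5), 14.0% (9.93 to 19.1) and 7.31% (6.68 to 7.98). For Unc5c and Kirrel3 the intervals of members and of leukocyte or endothelial cells overlapped, whereas for Spef2 they did not.

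Levels in each library are given as CPM, the usual depth scaling of a gene's UMIs by all UMIs of the class. Spef2 stood at 837, 591, 225 and 474 CPM, against 85.5 to 137 CPM in deep granulosa cells. Unc5c stood at 403, 443, 327 and 407 CPM, against 43.2 to 55.6 in deep cells. Kirrel3 stood at 431, 919, 550 and 571 CPM, against 67.6 to 91.2. In all 4 libraries each of the 3 genes was higher in low-UMI than in deep granulosa cells. On mm10, Spef2 lies on chromosome 15 from 9578193 to 9748868, Unc5c on chromosome 3 from 141465216 to 141834924 and Kirrel3 on chromosome 9 from 34485894 to 35036716 (GENCODE M21 annotation). The 3 genes span 171 kb, 370 kb and 551 kb. Unc5c and Kirrel3 each overlap other annotated genes on both strands, and which gene gave each UMI was not tested.

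**Figure D1:**
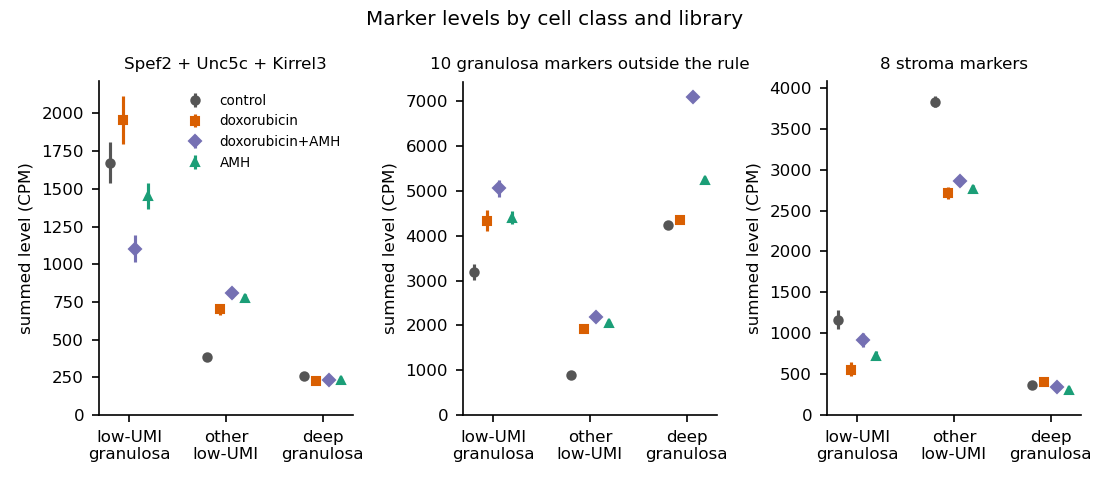
Summed levels in CPM of the 3 given markers (left), 10 granulosa markers outside the rule (middle) and 8 stroma markers (right) in low-UMI granulosa cells, other cells of the same UMI window and deep granulosa cells; each symbol is 1 library and bars are 95% Poisson intervals for counting error. The given markers lie between 1102 and 1954 CPM in low-UMI granulosa cells and between 224 and 260 CPM in deep granulosa cells.

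Most cells with the marker signature lay outside the rule. Of the 4735 cells in the UMI and mitochondrial window, 777 had at least 3 UMIs over Spef2, Unc5c and Kirrel3, and 203 of these (26.1%) were members. Among the 574 others, 249 carried 1 of the 6 granulosa genes with no excluding UMI, 137 carried none of them, and 188 held a UMI of Pecam1, Ptprc, Myh11 or Lum. The 3 groups had Inha at 1011, 1096 and 1071 CPM, beside 1190 CPM in the 203 members with the signature. Window cells outside the rule and without the signature had Inha at 520 CPM. Genes spanning at least 100 kb gave 30.9% of UMIs in the 203 members with the signature, 30.0% in the 574 others and 17.9% in members without it. Cells with the signature made up 9.35% (7.73 to 11.2), 15.97% (13.5 to 18.6), 15.9% (13.8 to 18.2) and 21.8% (19.8 to 23.8) of the window. The minimum of 3 UMIs was set after the data were seen. A further 212 cells with the signature fell in the same UMI range above the mitochondrial limit.

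Cells with just 1 granulosa gene, outside the rule, had Spef2 at 475, Unc5c at 403 and Kirrel3 at 619 CPM, and members with exactly 2 had 526, 413 and 606 CPM. Cells above the mitochondrial limit, with over 20% to 25%, had Spef2 at 448 CPM, against 512 CPM in members with 15% to 20%. The 84 members nearest the upper UMI limit had Spef2 at 341 and Kirrel3 at 533 CPM, and the 69 cells just above it 532 and 132 CPM. Below the lower limit, the 52 cells of 500 to under 1000 UMIs had Spef2 at 52.9 CPM and ribosomal protein genes at 22.1% of UMIs. These values describe the limits and carry no test.

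The RNA of low-UMI granulosa cells differed in kind from that of deep granulosa cells. Ribosomal protein genes gave 11.8%, 12.4%, 12.9% and 13.8% of UMIs, against 20.9%, 21.7%, 23.3% and 22.8% in deep cells. Genes spanning at least 100 kb gave 23.7%, 22.9%, 20.9% and 22.3%, against 14.98%, 13.9%, 13.1% and 13.6%. The mitochondrial share differed less, at 7.37% to 8.48% against 6.33% to 7.02%. Malat1, a nuclear-retained RNA, gave 3.39% to 4.14% of UMIs in members and 2.18% to 2.82% in deep cells. For each of these 4 shares the members of every library lay outside the range of the deep cells. Other cells of the same UMI window lay between the 2 classes in ribosomal (15.9% to 17.7%) and long-gene share (17.3% to 18.8%). Their mitochondrial share, 5.27% to 5.58%, was below both classes, and their Malat1 share, 3.93% to 4.83%, overlapped that of members.

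The shift was not a steady function of depth. Over all libraries, the ribosomal share of cells meeting the other parts of the rule was 22.1% at 500 to under 1000 UMIs, 15.4% at 1000 to under 2000, 11.1% at 2000 to under 3000, 11.6% at 3000 to under 4000 and 14.8% at 4000 to under 5000. It then rose to 19.1% at 5000 to under 7500 UMIs and 22.3% at 20000 or more. The long-gene share peaked at 25.1% in the bin from 2000 to under 3000 UMIs, between 7.79% in the lowest bin and 13.8% in the highest.

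**Figure D2:**
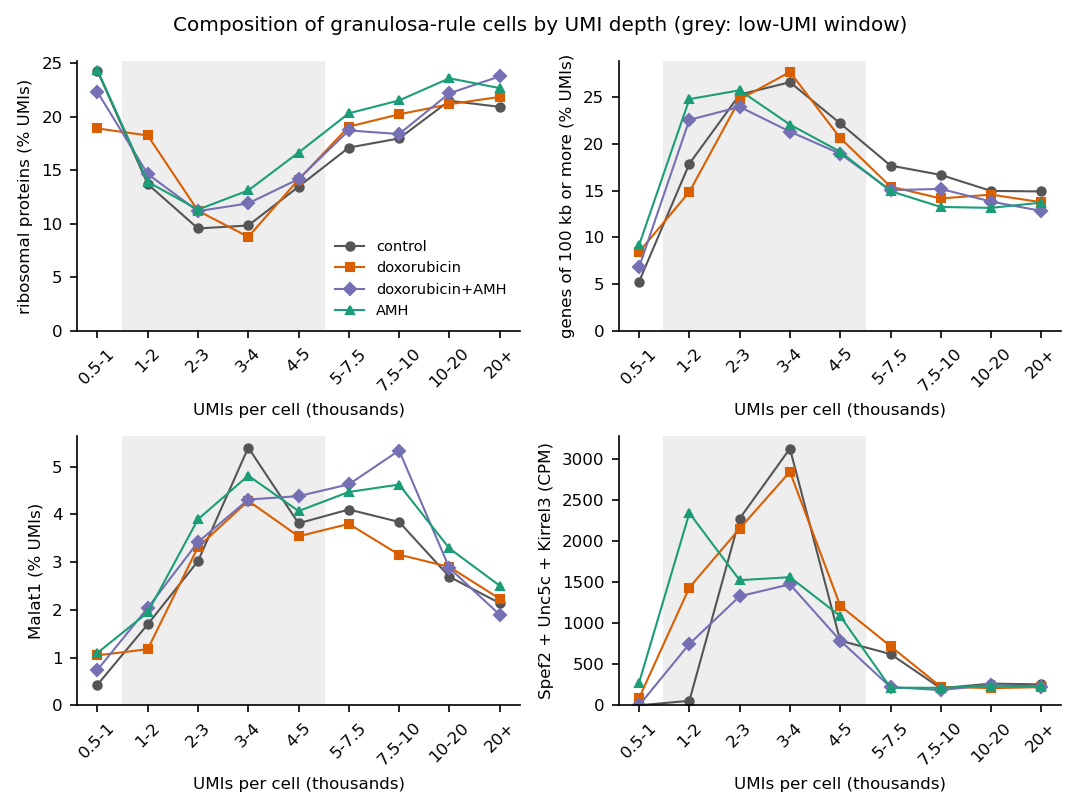
Share of UMIs from ribosomal protein genes, genes of at least 100 kb and Malat1, and the summed CPM of Spef2, Unc5c and Kirrel3, against UMIs per cell in bins for cells that meet the other parts of the rule; each line is 1 library and grey marks the low-UMI window. Within the window the ribosomal share dips to 11.1% and the long-gene share reaches 25.1% in the bin of 2000 to under 3000 UMIs over all libraries.

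Clustering of the 618 cells on variable genes, with the rule's genes and mitochondrial genes left out, gave 5 clusters, which are described by number. A cluster's leading genes defined it and are no result about it. Cluster 1, of 188 cells, held the given markers: Spef2 stood at 1422 CPM, Unc5c at 1109 and Kirrel3 at 1611, and its other leading genes included Ica1l, Jph2, Scn3b and Tmem241. Inhba, the activin subunit, was at 1030 CPM there and Fshr, the receptor for follicle-stimulating hormone and one of the rule's genes, at 609 CPM. Ribosomal protein genes gave 5.66% of its UMIs and long genes 31.9%. All 3 markers were seen in 60 of its cells, and none in 11.

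Cluster 2, of 148 cells, had Col18a1, Shroom3, Dgkb, Fgd5 and Kcnd2 among its leading genes, with Nr5a2, the nuclear receptor that drives granulosa and luteal differentiation and is in the rule, at 1032 CPM. Long genes gave 28.4% of its UMIs. The given markers together stood at 729 CPM there, against 4141 CPM in cluster 1. The 10 granulosa markers outside the rule together stood at 3039 CPM there and at 5438 CPM in cluster 1.

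Cluster 3, of 116 cells, held genes of other cell types beside granulosa genes. Hbb-bs (hemoglobin beta) stood at 10453 CPM, and C1qa, Lyz2, C1qb and C1qc, which macrophages express, and Cyp17a1 and Lhcgr, of theca cells, were among its 10 leading genes. Each was seen in a minority of its cells: Hbb-bs in 18.1%, Lyz2 in 14.7%, C1qa in 10.3%, Cyp17a1 in 11.2% and Lhcgr in 10.3%. All 7 epithelium markers were at least 2-fold above the other members as well, together at 655 CPM against 53.4. Its 10 granulosa markers outside the rule together stood at 5980 CPM, the highest of the 5 clusters, against 4046 CPM in the other members. Ribosomal protein genes gave 25.6% and long genes 7.41% of its UMIs. In the doxorubicin+AMH library the 5 erythroid markers reached 9876 CPM over all members, of which 4 cells held at least 3 such UMIs, against 45.4 to 131 CPM in the other libraries.

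Cluster 4, of 91 cells, was led by Gm26917, annotated as a long non-coding RNA, at 18341 CPM against 368 in the other members. The histone genes Hist1h4h, Hist1h1e, Hist1h3e and Hist1h1d, the angiotensinogen gene Agt, the mitochondrial leucyl-tRNA synthetase gene Lars2 and Cenpf, a kinetochore protein of dividing cells, followed. Inha stood at 2175 CPM and the 3 given markers together at 74.6 CPM. Its cells came 5 from control, 3 from doxorubicin, 37 from doxorubicin+AMH and 46 from AMH. Since Gm26917 differed between the libraries and took part in the clustering, no comparison of these counts is made.

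Cluster 5, of 75 cells, had the profile of stroma. All 8 stroma markers were at least 2-fold above the other members, led by Dcn (decorin) at 2200 CPM, Pdgfra at 448 and Tcf21 at 335, so it is called stroma-like. Its 10 granulosa markers stood at 1040 CPM, the lowest of the 5 clusters. Foxl2, Kctd14 and Gatm, which are in the rule, stood at 270, 192 and 171 CPM there. Cluster 5 held 75 stroma-like cells, and part of the 116 cells of cluster 3 held genes of other cell types. Low-UMI granulosa therefore names the rule here and not 1 cell type. Many values below moved when clusters 3 and 5 were left out whole. The values without them are given for the gene lists and for part of the genes. At a finer resolution of 1.0 there were 9 clusters, and the largest share of a cluster that stayed together was 64.9% for cluster 1, 36.5% for cluster 2, 63.8% for cluster 3, 100% for cluster 4 and 97.3% for cluster 5.

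**Figure D3:**
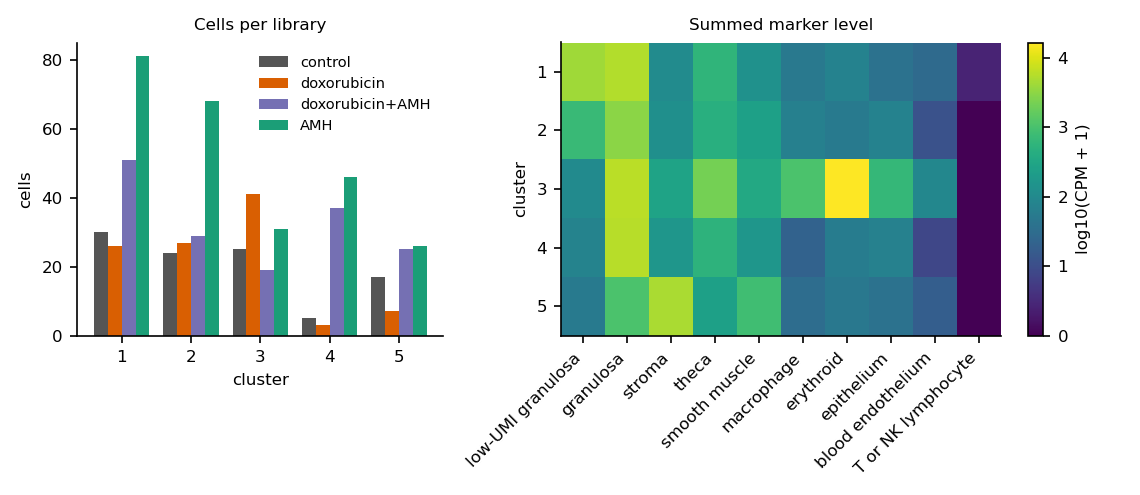
Left, cells per cluster and library; right, summed level of each marker list by cluster on a log10(CPM + 1) scale. The 3 given markers are highest in cluster 1 (4141 CPM), stroma markers in cluster 5 (4746 CPM) and erythroid markers in cluster 3 (16529 CPM).

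Low-UMI and deep granulosa cells were next compared within each library across all genes. Deep cells were thinned to the depth of the members of their library and had to meet the marker rule again, which left 854, 630, 695 and 788 of them. UMIs were summed per library and class and tested with edgeR's quasi-likelihood test, with library as a block and Benjamini-Hochberg adjustment over 10423 genes. The 4 libraries are of 4 treatments, so a p-value measures how steady a difference was over them. At an adjusted p under 0.05, 2081 genes (20%) were higher and 1966 (18.9%) lower in low-UMI cells. A called gene had in addition to differ at least 2-fold, which 712 genes (6.83%) did upward and 379 (3.64%) downward. Without the members of clusters 3 and 5 the counts were 1005 (9.83%) and 1764 (17.2%) of 10229 genes, and with a mitochondrial limit of 10% they were 676 and 190. Clusters 3 and 5 were taken out of the members alone, and the deep cells stayed unchanged. These clusters had the highest ribosomal shares of the 5, at 25.6% and 20.7% of UMIs. Shifts of that fit in genes high in these clusters follow in part from this choice of cells.

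Long genes and genes not annotated as protein coding were called higher more often than all genes, of which 6.83% were called higher and 3.64% lower. Of 1671 genes spanning at least 100 kb, 173 (10.4%) were called higher and 2 lower, with a median log2 fold change of 0.49 beside 0.02 over all genes. Of 2232 genes under 10 kb, 136 (6.09%) were called higher and 251 (11.2%) lower, with a median of -0.51. Of 525 genes not annotated as protein coding, 261 (49.7%) were called higher and 8 lower. Among long genes 308 (18.8%) were called higher and 19 lower without clusters 3 and 5, among short genes 110 and 1013, and among 494 genes not protein coding 282 and 30. Of the 10103 genes tested with and without these clusters, 9.11% were then called higher and 17.5% lower. Gm4876, a 107 kb antisense RNA, stood at 369, 368, 212 and 270 CPM in low-UMI cells, against 67.4, 39.0, 45.2 and 41.0 CPM in deep cells. No low-UMI value overlapped a deep value, and the log2 fold change was 2.51 (SE 0.13, adjusted p = 2.86e-13 by edgeR).

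The 12 genes with the highest fold among called genes of at least 50 CPM were C1qb, C1qa, Lyz2, Usp35, Gm50163, Gm26917, Gm42836, Gm42620, Gm12296, Gm32036, 4930590L20Rik and Gm4876, with log2 fold changes of 2.51 to 4.94. Of these, 8 are not protein coding and 7 overlap a gene on the other strand. The 12 lowest were Naa38, Crabp2, Serpinb6b, Serf1, Mgst3, Hsd17b1, Mrpl34, Wfdc10, Rasl10a, Bex4, Mrpl53 and 1110065P20Rik, with log2 fold changes of -1.52 to -1.29. In the fit without clusters 3 and 5 these were -2.27 (Hsd17b1) to -1.38 (Mgst3), with Naa38 at -2.26 and Mrpl53 at -2.24. All 12 are protein coding, and 6 overlap a gene on the other strand. Their median span was 2.12 kb, against 21.1 kb for the 12 highest. C1qb, a complement component of macrophages, rested on few cells: the 6 macrophage markers had at least 3 UMIs in 4, 3, 4 and 4 members of the 4 libraries. C1qb, C1qa and Lyz2 no longer passed the filter without clusters 3 and 5, where 1 macrophage marker was tested and 0 called by edgeR. Usp35, a deubiquitinase, stood at 79.99, 98.5, 53.5 and 35.3 CPM in low-UMI cells against 5.2 to 9.2 CPM in deep cells. Its groups did not overlap, and its log2 fold change was 2.97 (SE 0.24, adjusted p = 4.98e-10 by edgeR). Gm26917 lies on chromosome 17 from 39843013 to 39846341, and stood at 494, 532, 4416 and 4162 CPM in low-UMI cells against 190 to 311 CPM in the thinned deep cells. It was higher in low-UMI cells in every library.

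Transcripts of the translation and respiration machinery were lower. All 79 cytosolic ribosomal protein genes were lower at an adjusted p under 0.05, 25 of them (31.6%) at least 2-fold, with a median log2 fold change of -0.95. Beside these and the lists below, 18.9% of all genes were lower and 3.64% were called lower. Of genes under 10 kb, 11.2% were called lower. Rpl41 stood at 1934, 2193, 2638 and 2694 CPM in low-UMI cells against 3950, 4377, 4855 and 4829 in deep cells, and the 2 classes did not overlap. All 79 were called lower, with a median of -1.85, without clusters 3 and 5, the members with the highest ribosomal shares. That fit called 17.2% of all genes lower and 47.6% of genes under 10 kb, so its larger falls are no separate result. Of 78 nuclear-encoded genes of the respiratory chain, 74 were lower and 0 higher at an adjusted p under 0.05, and 16 were called lower (73 of 77, median -1.63 against -0.87, without clusters 3 and 5). Among 20 abundant cytoplasmic mRNAs, 19 were lower at that threshold, led by Gapdh and Eef1b2, which fell by 1.20 and 1.14 on the log2 scale, and by 2.26 and 1.96 without clusters 3 and 5. These were the 2 called lower of the 20, and without clusters 3 and 5 it was 18.

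Genes of granulosa function were lower as well. Of 14 such genes, 3 were called lower and 0 higher, and 10 were lower at an adjusted p under 0.05, beside 3.64% and 18.9% of all genes. Of genes under 10 kb, 11.2% were called lower. The number called lower was 6 without clusters 3 and 5, in a fit that called 17.2% of all genes and 47.6% of genes under 10 kb lower. The part of gene span in these values was not tested. Inha stood at 1023, 1405, 1754 and 1485 CPM in low-UMI cells against 2157, 2199, 3632 and 3040 in deep cells, a log2 fold change of -1.09 (SE 0.07, adjusted p = 1.31e-11 by edgeR). Hsd17b1, which makes estradiol from estrone, fell by 1.37 on the log2 scale, and Fst, the activin-binding follistatin, by 1.02. Inha fell by 1.42, Hsd17b1 by 2.27 and Fst by 0.97 without clusters 3 and 5. Fst also fell by less than 2-fold without the doxorubicin+AMH library, with a log2 fold change of -0.99. Inhba, 19.8 kb long, had a log2 fold change of -0.56 (adjusted p = 4.51e-05 by edgeR). Greb1, an estrogen-induced gene of 130 kb, was in contrast at 526 to 660 CPM in low-UMI cells and at 381 to 466 CPM in deep cells. Bmpr1b, a type I receptor for AMH and bone morphogenetic proteins spanning 332 kb, had a log2 fold change of 0.67 (SE 0.07), and 1.17 without clusters 3 and 5.

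Genes of axonemes and of guidance and adhesion were tested as lists that hold the given markers. Of 16 axoneme genes, 3 passed the filter. Cfap43 and the given marker Spef2 were called higher, beside 6.83% of all genes. Of 24 guidance and adhesion genes tested, 6 were called higher, among them Kirrel3, Unc5c, Nlgn1, Cdh11 and Ctnna3, and 0 lower. Against these 6 stand the 6.83% of all genes and 10.4% of long genes called higher, and 2 of the 6 are given markers. In the fit without clusters 3 and 5, 10 of 23 were called higher and 1 lower, with the given markers Unc5c and Kirrel3 among the 10. Called higher there were 9.11% of the 10103 genes tested in both fits and 18.8% of the long genes. Spef2, Unc5c and Kirrel3 had been chosen for this pattern, so their log2 fold changes of 1.76, 2.42 and 2.44 are a description. Nlgn1, a synaptic adhesion gene of 906 kb, was at 62.9, 29.5, 68.3 and 52.9 CPM in low-UMI cells against 4.3 to 13.1 CPM in deep cells. Every low-UMI value exceeded every deep value. Its log2 fold change of 2.35 was 0.77 without clusters 3 and 5 (adjusted p = 0.104 by edgeR), which ended the call, and that of Cdh11 turned from 1.75 to -1.34. Without the doxorubicin library Cfap43 and Ctnna3 had log2 fold changes of 0.98 and 0.74, under the 2-fold limit.

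Stress, damage and division lists had few called genes, to be read against the 6.83% of all genes called higher and 3.64% called lower. Several lists passed the share called lower, each on few genes. It was 20% of cell death, 12.5% of BMP and SMAD, 11.1% of S phase, 9.09% of steroid synthesis, 8.33% of p53 and 5% of G2/M genes. It was 0% for dissociation stress, DNA repair, interferon, AMH signalling and oocyte contact genes. Of 24 p53 targets tested, Perp and Bax were called lower and 0 higher, and the median was 0.05. Of 19 dissociation stress genes, such as Fos and Jun, 0 were called by edgeR at 2-fold, and 1 was higher and 6 lower at an adjusted p under 0.05. Of 18 S phase genes, Mcm3 and Mcm4, subunits of the replicative helicase, were called lower. At an adjusted p under 0.05, 8 of the 18 were lower and 1 higher, beside 18.9% and 20% of all genes. Of 8 BMP and SMAD targets, Id1 was called lower. Called lower were also Bak1, Cycs and Bax of 15 cell death genes, Tpx2 of 20 G2/M genes and Hsd17b1 of 11 steroid synthesis genes, and 0 of these lists' genes were called higher. Several of these calls ended when 1 library was left out: Perp without AMH (-1.20, adjusted p = 0.113 by edgeR), Bax without doxorubicin+AMH (-0.87), and Id1 without control (-0.95) or without doxorubicin (-0.99). With at least 3 of the 6 genes Mcm3 was at -0.59 and Tpx2 at -0.40, and edgeR no longer called them (adjusted p = 0.284 and 0.512). Xrcc6 was called higher of 22 DNA repair genes. Of 7 AMH signalling, 7 interferon response and 8 oocyte contact genes edgeR called 0 at 2-fold, and 4, 3 and 1 of them differed at an adjusted p under 0.05. Without clusters 3 and 5, where 17.2% of all genes were called lower, those called lower in each list were 5 of 24 p53 targets (median -0.10), 6 of 19 stress genes, 9 of 18 S phase genes, 5 of 20 G2/M genes, 4 of 8 BMP and SMAD targets, 4 of 11 steroid synthesis genes, 4 of 15 cell death genes, 2 of 22 DNA repair genes and 2 of 7 interferon genes. Of 7 AMH signalling genes 1 was then called higher and 1 lower. Stroma markers were higher in 4 of 6 tested genes, led by Dcn with a log2 fold change of 2.10. Without the members of clusters 3 and 5, 4 of these 6 stroma genes were called lower and 0 higher, and Dcn was at -2.17. Stroma genes led cluster 5 and the deep cells stayed unchanged, so this turn follows from the choice of cells and is no result about stroma genes. With at least 3 of the 6 genes Dcn was at 0.75 (adjusted p = 0.064 by edgeR).

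**Figure D4:**
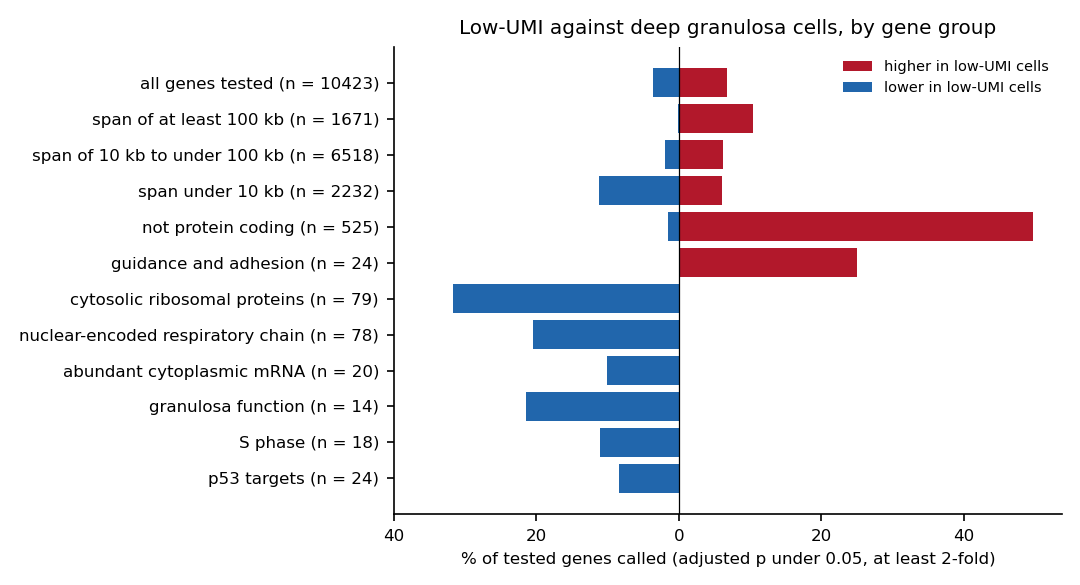
Percentage of tested genes called higher (red, right) or lower (blue, left) in low-UMI than in deep granulosa cells by edgeR, for all genes, 3 classes of gene span, genes not protein coding and 7 gene lists. Among 525 genes not protein coding 49.7% were called higher, and among 79 ribosomal protein genes 31.6% were called lower.

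The shares of filtered cells that were low-UMI granulosa cells were 1.18% (0.96 to 1.43), 1.62% (1.33 to 1.96), 2.31% (1.97 to 2.69) and 2.95% (2.60 to 3.33). As a share of all cells that met the granulosa rule at any depth from 1000 UMIs they were 6.02%, 7.17%, 9.38% and 12.3%. The interval of control did not overlap those of doxorubicin+AMH and AMH in either denominator. Median UMIs over all deposited cells also differed, at 12593, 13575, 10995.5 and 9834.5. The part of depth and of the UMI limits in these shares was not tested. Without clusters 3 and 5 the shares of filtered cells were 0.69%, 0.87%, 1.68% and 2.28%.

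Treatment ratios in low-UMI granulosa cells were computed for the 3734 genes whose mean over the libraries reached 50 CPM, as log2 ratios with a pseudocount of 5 CPM. At least 2-fold higher were 66 genes (1.77%) in doxorubicin over control and 10 (0.268%) in doxorubicin+AMH over AMH. At least 2-fold lower were 75 (2.01%) and 20 (0.536%). For AMH over control 30 genes (0.803%) were higher and 48 (1.29%) lower, and for doxorubicin+AMH over doxorubicin 47 (1.26%) and 82 (2.20%). These counts include counting error, which is larger for the control and doxorubicin libraries with the fewest UMIs. Deep cells set beside members in what follows are at full depth.

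Genes that differed in the same direction in both AMH contrasts included SMAD pathway members. Smad6, an inhibitory SMAD induced by this pathway, stood at 22.9, 42.7, 107 and 121 CPM, so both AMH-treated libraries exceeded both others. Its log2 ratios were 2.18 (1.37 to 3.66) for AMH over control and 1.23 (0.44 to 2.32) for doxorubicin+AMH over doxorubicin. Deep granulosa cells had 23.8, 30.4, 57.3 and 77.1 CPM, with ratios of 1.51 and 0.82. Smad7, the other inhibitory SMAD, stood at 97.1, 62.4, 174 and 160 CPM, and Id1, an inhibitor of differentiation, at 71.4, 72.2, 127 and 135 CPM. Both followed the same order of AMH-treated over untreated libraries.

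Of the 8 BMP and SMAD targets, 5 passed the filter: Id1, Id2, Id3, Smad6 and Smad7. Above 0 were 4 of the 5 in each AMH contrast, with medians of 0.69 and 0.78 beside medians of 0.00 and -0.04 over all genes. Summed over the 5 genes, the ratios were 0.07 (-0.13 to 0.27) for AMH over control, an interval that holds 0, and 0.51 (0.26 to 0.76) for doxorubicin+AMH over doxorubicin. With all 8 genes passing at 10 CPM the median for AMH over control was 0.19. Deep cells had a median of 0.70 in each contrast. Id3 was the exception, at 483, 338, 307 and 289 CPM in low-UMI cells, while deep cells had 356, 389, 486 and 456 CPM. Without clusters 3 and 5, all 5 genes were above 0 in both contrasts, with medians of 0.71 and 1.02.

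Gm26917 had AMH ratios of 3.06 (2.85 to 3.303) and 3.04 (2.82 to 3.29), where deep cells had 0.22 and 0.16. It had a UMI in 51.5%, 49.0%, 64.0% and 63.1% of members, and in cluster 4 stood at 3476, 7678, 17245 and 21747 CPM. Cluster 4 gave 59 of 173, 69 of 162, 2173 of 2392 and 3105 of 3302 of its UMIs. In cluster 1 it stood at 512, 271, 398 and 353 CPM and in cluster 2 at 611, 359, 718 and 417 CPM, so in both AMH was below control and doxorubicin+AMH above doxorubicin. In cluster 3 it stood at 38.1, 307, 1283 and 119 CPM, on 3, 29, 75 and 11 UMIs. In other cells of the low-UMI window it stood at 644, 576, 1664 and 1304 CPM. Gm42418, chosen after its values were seen, stood at 10939, 10222, 12243 and 10092 CPM in members and at 2201, 1936, 1826 and 1700 CPM in deep cells.

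Other genes higher in both AMH contrasts were Kcnb2, Agt and Nupr1. Kcnb2, a voltage-gated potassium channel, stood at 134, 59.1, 255 and 300 CPM, with deep levels of 61.3, 60.1, 149 and 163 CPM. Nupr1, a stress-induced chromatin protein, stood at 106, 112, 229 and 274 CPM, and Agt at 28.6, 42.7, 94.2 and 90.8 CPM. In each of these the AMH-treated libraries were higher than both others, in low-UMI and in deep cells.

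Genes lower in both AMH contrasts were Cyp11a1, C1qa, Fabp3, Aldh1a1 and Apoe. Cyp11a1, which starts steroid synthesis from cholesterol, stood at 194, 171, 35.1 and 15.1 CPM in low-UMI cells and at 661, 646, 102 and 77.4 CPM in deep cells. Its ratios were -3.31 (-4.70 to -2.79) and -2.13 (-3.12 to -1.50) in low-UMI cells, and -1.79 and -2.20 without clusters 3 and 5. The 7 theca markers, Cyp11a1 among them, together stood at 1231, 1202, 574 and 484 CPM in members and at 3543, 3362, 1514 and 1301 CPM in deep cells. Insl3, of theca cells, was at 0 in the members of all 4 libraries but was present in the deep cells of each. Aldh1a1, a retinaldehyde dehydrogenase, stood at 274, 233, 75.7 and 89.5 CPM. Apoe, a lipid carrier abundant in macrophages, stood at 891, 896, 310 and 266 CPM, and the 6 macrophage markers at 369, 470, 127 and 97.1 CPM. Without clusters 3 and 5 the Apoe ratios were -0.54 and -0.30, the C1qa ratios -0.84 and 0.00, and the Fabp3 ratio for AMH over control was -0.08. The part of theca cells and macrophages in the other values was not tested.

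**Figure D5:**
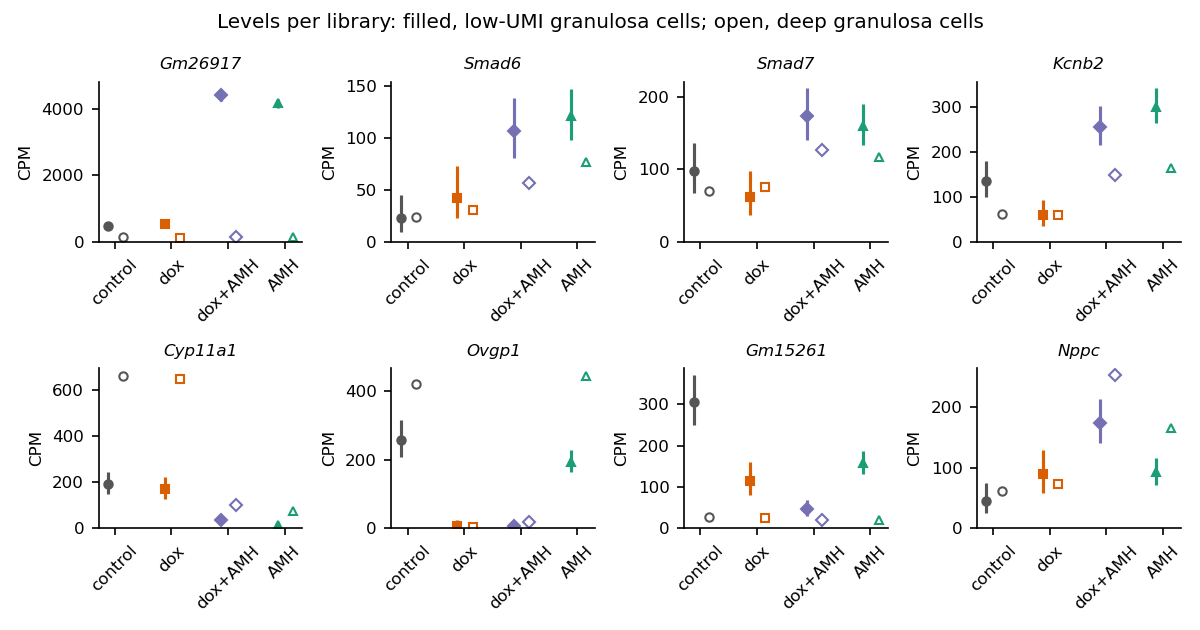
Levels in CPM of 8 genes per library in low-UMI granulosa cells (filled symbols, bars are 95% Poisson intervals for counting error) and in deep granulosa cells (open symbols). Smad6, Smad7, Kcnb2 and Gm26917 are higher in both AMH-treated libraries, Cyp11a1 is lower in them, and Ovgp1 is at 6.57 and 7.39 CPM in the doxorubicin-treated libraries against 257 and 194 CPM in the others.

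Genes lower in both doxorubicin contrasts were Ovgp1, Gm15261, Rhoj, Ank2 and Neb, though Ank2 went from -0.81 to 0.040 for doxorubicin over control with at least 3 of the 6 genes. Ovgp1, an estrogen-responsive glycoprotein of the oviduct, stood at 257, 6.57, 7.39 and 194 CPM in low-UMI cells, in 13, 2, 4 and 41 cells. Deep granulosa cells had 420, 5.7, 18.2 and 443 CPM, so in both classes the doxorubicin-treated libraries were lowest. The 7 epithelium markers together stood at 311, 42.7, 129 and 137 CPM in members and at 236, 182, 73.3 and 271 CPM in deep cells, and Krt18, Krt19 and Krt7 were at 0 in the doxorubicin members. Their part in the Ovgp1 values was not tested. Its ratios were -4.50 (-8.36 to -3.40) without AMH and -4.01 (-6.61 to -3.33) with AMH, and -1.65 and -3.67 without clusters 3 and 5. Gm15261, a gene model, stood at 306, 115, 46.2 and 158 CPM in low-UMI cells and at 20.5 to 28.4 CPM in deep cells, with ratios of -1.37 (-2.01 to -0.85) and -1.67 (-2.45 to -1.14) against -0.11 and 0.05 in deep cells. With a mitochondrial limit of 10% the first was -0.08. Ank2, a membrane adaptor, stood at 257, 145, 72.0 and 138.7 CPM, with a deep ratio of 0.11 for doxorubicin over control, and Neb, a sarcomere protein gene, at 123, 49.3, 57.2 and 103 CPM.

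The genes ranked highest over both doxorubicin contrasts were Hba-a2, Hbb-bs, Hist1h1b, Nt5c3b and Nppc. Hbb-bs stood at 37.1, 82.1, 6229 and 29.0 CPM, and at least 3 erythroid UMIs were seen in 0, 3, 4 and 0 cells. Its ratio for doxorubicin over control was 1.05, but -0.49 without clusters 3 and 5 and -0.31 from 2000 UMIs. Hist1h1b, a linker histone of S phase, stood at 57.1, 145, 183 and 92.0 CPM, with deep ratios of -0.05 without and 1.04 with AMH. With a mitochondrial limit of 10% its ratio with AMH was 0.25, against 0.95. Nppc, the natriuretic peptide by which granulosa cells hold the oocyte in meiotic arrest, stood at 45.7, 88.7, 174 and 92.0 CPM, with deep levels of 62.1, 73.3, 252 and 165 CPM. Its ratios were 0.89 (0.01 to 1.95) and 0.88 (0.46 to 1.38).

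The medians of the p53 targets turned with the genes and cells taken. Of 30 genes 5 passed the filter, and 2 of 5 were above 0 for doxorubicin over control (median -0.29) and 4 of 5 for doxorubicin+AMH over AMH (median 0.12). With 20 genes passing at 10 CPM the first median was 0.44, and without clusters 3 and 5 it was 0.36, while the second was 0.07 and 0.12. By cluster the first was 0.25 in cluster 1 and 1.04 in cluster 2. The second turned to -0.12 with a mitochondrial limit of 10% and was 0.33 with at least 3 of the 6 genes, and it was -0.41 in cluster 1 and 0.33 in cluster 2. Summed over the 5 genes the log2 ratios were 0.21 (-0.07 to 0.49) and 0.26 (0.05 to 0.46). Cdkn1a, the p53-induced inhibitor of cyclin-dependent kinases, stood at 2.86, 36.1, 44.3 and 31.5 CPM, in 1, 9, 19 and 14 cells, and was under the filter. Deep cells had it at 15.2, 70.5, 24.4 and 18.9 CPM, with doxorubicin the highest of the 4. At this depth the intervals of its ratio ran from 0.88 to 9.09 for doxorubicin over control and from -0.38 to 1.36 for doxorubicin+AMH over AMH. Pvt1, a p53-induced long non-coding RNA, stood at 74.3, 230, 118 and 93.3 CPM, so the doxorubicin library exceeded the other 3.

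Granulosa function and division genes differed by library. All 10 granulosa function genes that passed the filter were above 0 for doxorubicin over control (median 0.53) and for AMH over control (median 0.48), beside 52.2% and 50.4% of all 3734 genes. For doxorubicin+AMH over AMH it was 9 of 10 (median 0.24) and for doxorubicin+AMH over doxorubicin 8 of 10 (median 0.30), beside 46.1% and 45.3%. Cluster 3, with Inha at 2837 CPM, held 24.8%, 39.4%, 11.8% and 12.3% of the members, so different clusters make up the members of each library. Inhba stood at 340, 525, 702 and 643 CPM and Inha at 1023, 1405, 1754 and 1485 CPM. Without clusters 3 and 5, 6 of 10 were above 0 for doxorubicin over control, with a median of 0.14, and 8 of 10 for AMH over control, with 0.68. The other contrasts were then 9 of 10 (median 0.25) for doxorubicin+AMH over AMH and 9 of 10 (median 1.14) for doxorubicin+AMH over doxorubicin. Of 6 G2/M genes, all were above 0 for doxorubicin+AMH over AMH, and 5 without clusters 3 and 5. Their medians were 0.33 for doxorubicin over control, 0.33 for doxorubicin+AMH over AMH, 0.66 for AMH over control and 0.72 for doxorubicin+AMH over doxorubicin. Leaving out clusters 3 and 5, the 4 medians were -0.05, 0.46, 1.16 and 1.98 in that order. Mki67, the proliferation marker, stood at 51.4, 36.1, 168 and 80.7 CPM. Cluster 4, with Cenpf of this list among its leading genes, held 5, 3, 37 and 46 cells of the 4 libraries, and its part in these values was not tested. Amhr2, the AMH receptor, which is in the rule, stood at 114, 220, 138 and 144 CPM, and its ligand gene Amh at 42.9, 167, 66.5 and 55.5 CPM.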

How the data were processed

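The authors deposited UMI counts per gene and cell, made with Cell Ranger 7.0.0 as stated per the file headers; the build mm10 and the tools R 4.2.0 and Seurat 4.1.0 are named per the submitters' processing notes. Whether intronic reads were counted, and the annotation, are not given in the sources used here, and this bears on every long-gene value. Positions and gene spans came from GENCODE M21 on mm10, matched by gene ID for 32235 of 32285 genes. Filtered cells reached 1000 UMIs with no more than 20% of them mitochondrial, and members and deep cells met the rule given in the report.

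The members, the 3 given markers and the gene lists were chosen with earlier results of these data known. Named genes were the 12 highest and 12 lowest called genes of at least 50 CPM with one sign in all 4 libraries, the 5 highest and 5 lowest for each pair of treatment contrasts, and list members. Counts were tested with edgeR 4.0.16 in R 4.3.3 (filterByExpr, quasi-likelihood), with DESeq2 1.42.0 as an alternative; clusters used scanpy 1.11.5 and leidenalg 0.10.2 on 2000 variable genes, 30 components, 20 neighbours and resolution 0.5. The test was checked on simulated data. Scrublet's automatic threshold called 0 cells in each library and so had not worked; doublets were kept, and removing the highest scores at 0.8% per 1000 cells took 1, 5, 7 and 7 members. Other alternatives were the filter, pseudocount, scaling, cell weights, UMI window, mitochondrial limit, marker rule, deep-cell limit, thinning and leaving out each library. The alternative without clusters 3 and 5 was chosen after seeing the data, and it left the deep cells unchanged. Some genes that the naming rule or the lists hold are not reported here.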

Additional observations from a re-analysis of the deposited data

Results flagged for a closer look

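A few lists had summed treatment ratios of opposite sign with and without AMH, each with an interval of counting error away from 0; the difference between the 2 ratios was not tested. The 17 dissociation stress genes summed to a log2 ratio of -0.22 (-0.31 to -0.12) for doxorubicin over control and 0.34 (0.28 to 0.39) for doxorubicin+AMH over AMH. Fos, an immediate early gene, stood at 1388, 1090, 1678 and 1195 CPM from control through doxorubicin and doxorubicin+AMH to AMH, where deep cells had 1669 to 1823 CPM. Without clusters 3 and 5 the list medians for the 2 contrasts were -0.03 and 0.05, against -0.28 and 0.30 with them. The AMH signalling genes, Amh, Amhr2, Bmpr1a, Bmpr1b and Smad4, of which Amhr2 was used by the rule that chose the cells, summed to 0.24 (0.09 to 0.38) and -0.12 (-0.23 to -0.01), with medians of 0.47 and -0.02, which without clusters 3 and 5 were 0.40 and 0.11. Summed over the other 4 genes, with Amhr2 left out after its values were seen, the ratios were 0.19 (0.04 to 0.33) and -0.12 (-0.23 to -0.01), and without clusters 3 and 5 they were 0.05 (-0.11 to 0.20) and -0.05 (-0.16 to 0.07), intervals that hold 0. Cytosolic ribosomal protein genes summed to 0.073 and -0.095, and nuclear-encoded respiratory chain genes to 0.073 and -0.077.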

How the results depend on the processing

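In low-UMI against deep cells, the 712 higher and 379 lower genes became 1194 and 1061 without thinning of deep cells, 300 higher with at least 3 of the 6 genes, 931 lower without a filter, 190 lower at 10% mitochondrial UMIs and 1764 lower without clusters 3 and 5. Leaving out each library gave 687 to 825 higher and 354 to 525 lower. The 24 genes of highest and lowest fold kept direction and call in all 282 values obtained. Of 294 values for 25 genes named from lists, 262 kept both, 29 lost the call, 1 (Bmpr1b) gained it, and Cdh11 (-1.34) and Dcn (-2.17) turned without clusters 3 and 5. C1qb, C1qa and Lyz2 gave none without clusters 3 and 5 or with 3 of the 6 genes, where they were not tested. Resolution 1.0 gave 9 clusters. The shares of filtered cells in control, doxorubicin, doxorubicin+AMH and AMH became 0.87%, 1.19%, 1.69% and 2.30% at 10% mitochondrial UMIs, 0.20%, 0.45%, 0.76% and 0.68% with 3 of the 6 genes, and 0.69%, 0.87%, 1.68% and 2.28% without clusters 3 and 5; doxorubicin was 1.23% from 2000 UMIs. The p53 median for doxorubicin over control turned to 0.44 at 10 CPM and 0.36 without clusters 3 and 5, and for doxorubicin+AMH over AMH it was -0.12 at 10% mitochondrial UMIs and 0.33 with 3 of the 6 genes. The BMP and SMAD median was 0.19 for AMH over control at 10 CPM and 1.27 for doxorubicin+AMH over doxorubicin with 3 of the 6 genes. The 160 alternative values for the 20 genes named from treatment ratios were set against the mean distance from each ratio to the ends of its counting interval. By no more than this distance 144 moved, and 15 moved by more. Ank2 turned to 0.040 for doxorubicin over control with 3 of the 6 genes. Among the 15, Hbb-bs for doxorubicin over control turned from 1.05 to -0.31 from 2000 UMIs and to -0.49 without clusters 3 and 5. The cause of these changes was not tested. With 1 library per group and as few as 304552 UMIs in the doxorubicin members, genes under a mean of 50 CPM were left out of the counts and rankings of treatment ratios, and values for such genes (Cdkn1a, and medians at 10 CPM) are less precise.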
